A study of Mus musculus with 4 samples.

Results

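Splicing factor genes were examined for N6-methyladenosine (m6A) peaks in mouse c-Kit+ cells. The set comprised every protein-coding gene of GENCODE M21 on the nuclear chromosomes whose symbol starts with Srsf, Hnrnp, Sf3a, Sf3b, Snrp, U2af or Prpf, which gave 68 of 21851 protein-coding genes. It held 11 Srsf, 20 Hnrnp, 3 Sf3a, 6 Sf3b, 12 Snrp, 3 U2af and 13 Prpf genes. The rule used names alone and no measured value.

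The cells were Kit+ foetal liver cells from C57BL/6 mice, enriched with magnetic beads (MACS). The methods name them as Ythdf2 CTL, that is Ythdf2 fl/fl without Cre, an allele that carries a GFP reporter fused to YTHDF2, and no other genotype or treatment was part of the series. The 4 samples were m6A immunoprecipitation (IP) replicates 1 and 2, labelled as total RNA, and input replicates 1 and 2, labelled as polyA RNA. Each IP replicate had its own list of peaks, so values are given for 2 samples of 1 group, and no test between groups was possible.

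Removal of introns is carried out by the spliceosome, which assembles from small nuclear ribonucleoproteins (snRNPs) on each intron. SR proteins (Srsf genes) bind exons and mostly promote their inclusion, whereas heterogeneous nuclear ribonucleoproteins (Hnrnp genes) coat nascent RNA and often repress splice sites. Many genes of both families control their own level through introns or exons that, when kept, lead to decay of the transcript. The m6A mark is written on nascent RNA by the METTL3 and METTL14 complex, mostly at DRACH sequences, and is best known near stop codons and in long internal exons.

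A peak is a stretch of the genome where IP reads exceeded the local background, and its summit is the position of highest IP signal. Its fold enrichment is the ratio of IP to background at the summit, with 1 added to each after scaling. It is therefore not the plain quotient of the IP and control reads given below, above all where the background is low. The smallest -log10 q in the lists was 1.31 in replicate 1 and 1.30 in replicate 2. Library totals are not known from the lists, and a gene without a peak can lack the mark or lack the reads to show it. In a bulk sample, fewer cells of a type and less RNA per cell cannot be told apart.

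Sequences around the summits are shown first for peaks that recurred in both replicates at nearly the same position. They are read 5′ to 3′ from GRCm38 on the strand of the gene, and the capitals mark GGAC, the most typical core of the m6A consensus, whose A is the candidate base. Distances from the summit to that A are in nucleotides (nt) along the spliced transcript, negative when the A lies upstream.

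Srsf2: ctacccacgaGGACtgtagctaccg
Hnrnpl: ggcagcagccGGACgagcagctgag
Hnrnpr: ggcacctttgGGACcaccaagaggc
Prpf18: cgcagcatgaGGACtccggccttac
Prpf38b: gcaggagcaaGGACaagtcaagcag
Prpf4b: tccaaagaacGGACcaggcacagat

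The Srsf2 sequence (chr11:116853006-116853030, - strand) lies upstream of the start codon, with its A at -6 nt from the summit of replicate 1 and -4 nt from that of replicate 2. The Prpf18 sequence (chr2:4624372-4624396, - strand) lies past the stop codon in the last exon, with its A at -1 and -3 nt. The Hnrnpl sequence (chr7:28810966-28810990, + strand) is in exon 2 just after the start codon, with its A at 25 and 10 nt. Prpf38b (chr3:108904184-108904208, - strand) and Hnrnpr (chr4:136339725-136339749, + strand) are coding sites in the last exon. Their summits fell on the same base in both replicates, 18 nt before the A in Prpf38b and 26 nt after it in Hnrnpr (an offset of -26). The Prpf4b sequence (chr13:34883754-34883778, + strand) is a coding site in an internal exon of 1197 nt, with its A at 14 and 6 nt.

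Some other recurrent peaks had no GGAC within 50 nt of either summit but did have a wider DRACH match (D stands for any base but C, R for a purine and H for any base but G), marked in capitals.

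Hnrnpm: ggcggcgacaGAACCcaaaatggag
Hnrnph3: cgagggagccGAACCgttgtggcga

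The Hnrnpm match (chr17:33685323-33685347, - strand) is in the coding sequence of exon 1 close to the start codon, with its A 4 and 11 nt past the summits. That of Hnrnph3 (chr10:63023806-63023830, - strand) is in the 5′ UTR in exon 1, at 9 and 15 nt. The examples shown all have a GGAC or DRACH match within 50 nt of both summits, and not all recurrent peaks had one. Those of Hnrnpa2b1, Hnrnpc, Hnrnpd, Hnrnpu and Hnrnpul2 and the start codon peak of Prpf38b had neither within 50 nt of either summit. A match is a description of the sequence and does not show which base was modified.

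A summit lay in an exon of 37 of the 68 splicing factor genes in replicate 1 (54.4%) and of 32 in replicate 2 (47.1%). Over all protein-coding genes the shares were 34.4% and 33.5%. Both replicates had a summit in 28 splicing factor genes (41.2%, against 30.9% of all genes), and either replicate had one in 41 (60.3%, against 37.1%). The remaining 27 had none. All protein-coding genes include those not expressed in these cells, as the lists hold no RNA levels to leave them out. No interval was computed for these shares of genes. With peaks under 4-fold enrichment set aside, 10 genes had a summit in both replicates (14.7%), and the order turned, since 16.9% of all protein-coding genes passed.

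**Figure D1:**
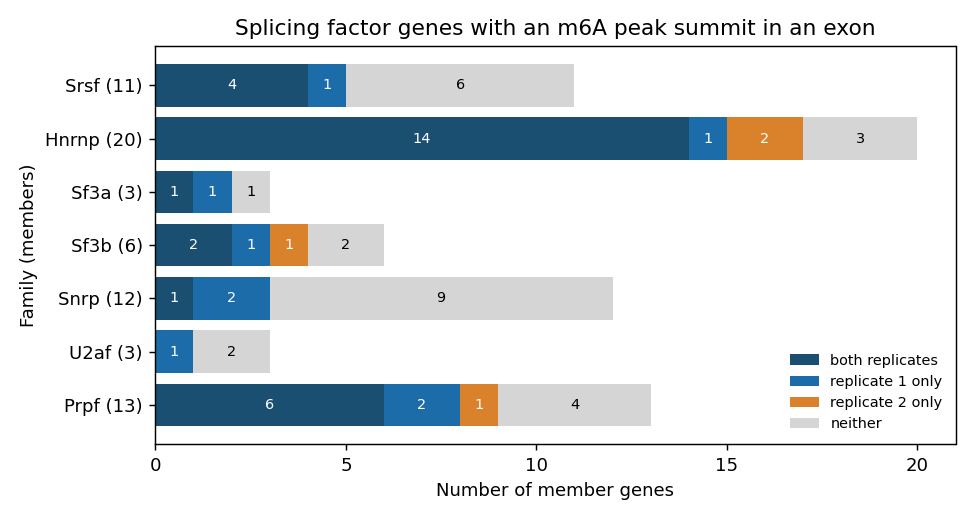
Number of splicing factor genes (horizontal axis) of each family (vertical axis, members in brackets) with an m6A peak summit in an exon in both replicates, in 1 replicate or in neither. Of the 20 Hnrnp genes 14 had a summit in both replicates, and of the 12 Snrp genes 1 did.

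By family, the largest share was that of the Hnrnp genes, which have many roles in RNA processing, and the smallest those of the Snrp and U2af genes. Among Hnrnp genes 14 of 20 had a summit in both replicates, namely Hnrnpa0, Hnrnpa2b1, Hnrnpa3, Hnrnpc, Hnrnpd, Hnrnpf, Hnrnph2, Hnrnph3, Hnrnpl, Hnrnpm, Hnrnpr, Hnrnpu, Hnrnpul1 and Hnrnpul2. Hnrnpk had one in replicate 1, Hnrnpab and Hnrnpll had one in replicate 2, and Hnrnpa1, Hnrnpdl and Hnrnph1 had none. Among Srsf genes 4 of 11 had summits in both (Srsf1, Srsf2, Srsf4 and Srsf10), Srsf11 had them in replicate 1, and Srsf3, Srsf5, Srsf6, Srsf7, Srsf9 and Srsf12 had none. In the Prpf genes, which mostly encode proteins of the U4/U6.U5 snRNP and its partners, 6 of 13 had summits in both replicates (Prpf4, Prpf4b, Prpf18, Prpf19, Prpf31 and Prpf38b). Prpf6 and Prpf8 had one in replicate 1, and Prpf3, Prpf38a, Prpf39 and Prpf40b had none.

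The U2 snRNP subunits of the Sf3a and Sf3b families, which bind at the branch site, had 3 of 9 genes with summits in both replicates (Sf3a2, Sf3b4 and Sf3b5). Sf3a1 and Sf3b3 had one in replicate 1, Sf3b1 in replicate 2, and Sf3a3, Sf3b2 and Sf3b6 had none. Of the 12 Snrp genes, which encode the Sm ring and other snRNP proteins, Snrpa1 alone had a summit in both replicates. Snrpd2 and Snrpd3 had one in replicate 1, and Snrpa, Snrpb, Snrpb2, Snrpc, Snrpd1, Snrpe, Snrpf, Snrpg and Snrpn had none. U2af2, the large subunit of the factor that recognises the 3′ splice site, had a summit in replicate 1, and U2af1 and U2af1l4 had none.

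Presence of a peak went with the length of the transcript, as it did over all genes. The chosen spliced transcript (the one with the longest coding sequence) had a median length of 3042 nt in splicing factor genes with a summit in both replicates and of 1820 nt in those with none. Over all protein-coding genes the medians were 3340 and 2136 nt. Below 1500 nt, where 16 splicing factor genes fell, 2 had a summit in both replicates (12.5%, against 12.9% of all genes of that length). From 1500 to 3000 nt the share was 45.8% of 24 against 28.9%, from 3000 to 5000 nt 44.4% of 18 against 41.4%, and from 5000 nt 70.0% of 10 against 47.4%. The order of the families by length was not that by share. Median lengths were 1200 nt for Snrp (8.33% with a summit in both replicates), 2290 nt for Srsf (36.4%), 2800 nt for Hnrnp (70.0%), 3520 nt for Prpf (46.2%) and 3530 nt for Sf3b (33.3%). The families of 3 genes had 1050 nt for U2af (0 of 3) and 2210 nt for Sf3a (1 of 3).

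**Figure D2:**
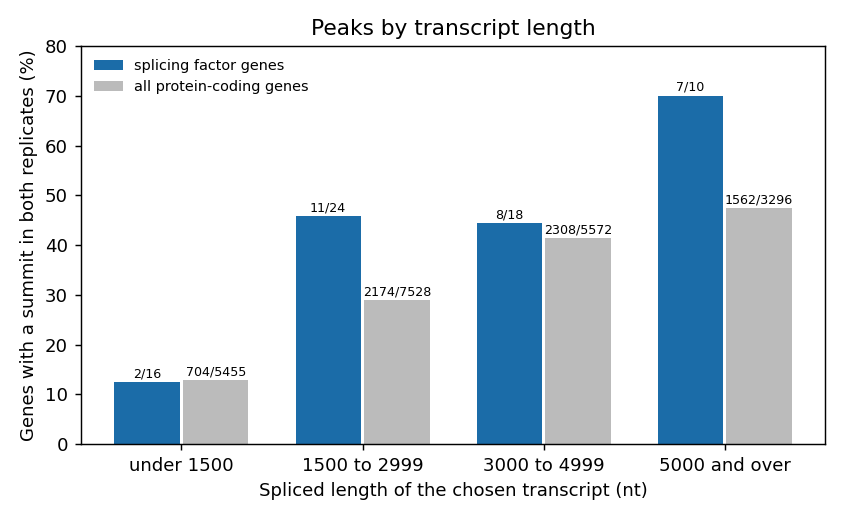
Percent of genes with a summit in both replicates (vertical axis) by spliced length of the chosen transcript (horizontal axis, nt) for splicing factor genes and for all protein-coding genes. Numbers on the bars give genes with a summit over genes in the class, 2 of 16 splicing factor genes below 1500 nt and 7 of 10 from 5000 nt.

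Most members had a single peak. In replicate 1, 29 had 1 exonic peak, 7 had 2 and Hnrnpc had 3, and in replicate 2 these were 26, 5 and, for 3 peaks, Hnrnpm. None had 3 or more in each replicate. In all there were 46 exonic peaks in replicate 1 and 39 in replicate 2, of which 37 and 31 summits could be placed on the chosen transcript of exactly 1 gene.

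The placed summits lay at the start codon more often than all placed summits did. Within 200 nt of the start codon lay 17 of 37 summits in replicate 1 (45.9%, 95% exact interval 29.5 to 63.1) and 15 of 31 in replicate 2 (48.4%, 30.2 to 66.9), a mean of 47.2% ± 1.73 (SD, n = 2). Over all placed summits, 10829 in replicate 1 and 10464 in replicate 2, the shares were 14.7% and 15.4%. The intervals cover counting error only, and summits of one gene are not independent. First exons held 40.5% and 48.4% of the summits of splicing factor genes, against 12.5% and 13.2% of all summits. The first 100 nt of the transcript held 24.3% and 32.3%, against 5.22% and 5.42%, a class set with the values known. This class overlaps that of the start codon, and summits of Srsf1, Hnrnpa2b1 and Hnrnpc, among others, belong to both.

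The stop codon region, where m6A is best known, held a smaller part. It took 8 of 37 summits in replicate 1 (21.6%, 95% exact interval 9.83 to 38.2) and 6 of 31 in replicate 2 (19.4%, 7.45 to 37.5), against 30.7% and 29.8% of all summits. Both values for all summits lie inside these intervals, so a difference at the stop codon was not detectable with this number of summits. Coding sequence outside these windows held 21.6% and 25.8%, against 33.9% and 33.7%. The rest of the 3′ UTR held 8.11% and 3.23%, against 17.2% and 17.5%, and last exons held 35.1% and 25.8%, against 58.6% and 58.0%.

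**Figure D3:**
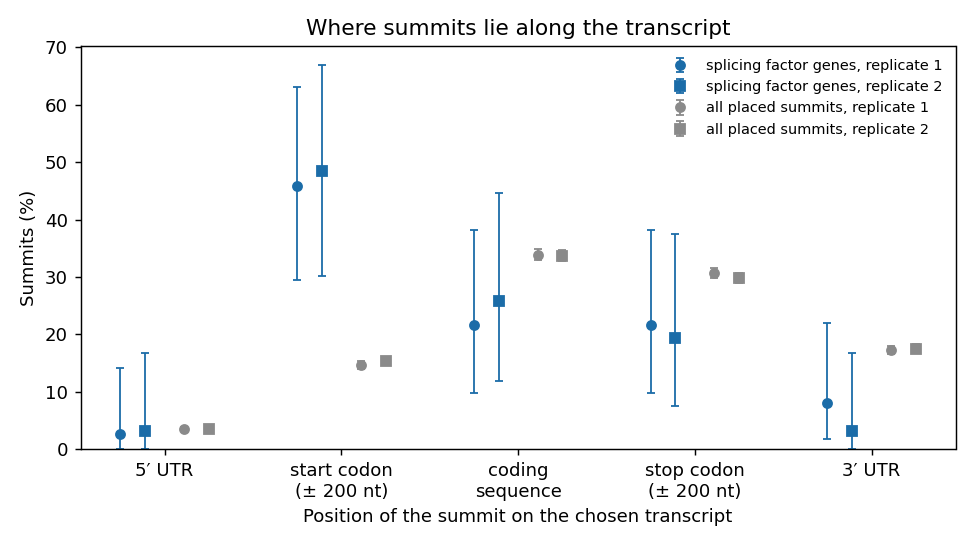
Percent of placed summits (vertical axis) in each part of the chosen transcript (horizontal axis) for splicing factor genes and for all placed summits, by replicate, with exact 95% intervals. At the start codon the splicing factor genes reached 45.9% and 48.4% and all placed summits 14.7% and 15.4%.

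In both replicates 11 genes had a summit at the start codon: Srsf1, Srsf2, Hnrnpa0, Hnrnpa2b1, Hnrnpc, Hnrnph3, Hnrnpl, Hnrnpm, Hnrnpul1, Snrpa1 and Prpf38b. A further 8 had one in 1 replicate. At the stop codon 5 genes had a summit in both replicates, Hnrnpa0, Sf3b5, Prpf4b, Prpf18 and Prpf31. Hnrnpa0, which has a single exon, and no other gene belonged to both groups.

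The start codon share moved with the strength and background of the peak. Of the placed peaks with at least 4-fold enrichment, 10 of 11 in replicate 1 and 9 of 12 in replicate 2 had their summit at the start codon (mean 83.0%), against 19.8% over all genes. Where the background was 36 control reads or more, the shares were 26.9% of 26 summits in replicate 1 and 23.5% of 17 in replicate 2, against 6.38% and 5.61% over all genes with such a background. Below 10 control reads, 7 of 7 summits in replicate 1 and 6 of 7 in replicate 2 lay there, against 23.2% and 23.9%. These classes of background were also set with the values known.

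Few splicing factor genes have a long internal exon. The chosen transcript held an internal exon of at least 400 nt in 4 of 68 (5.88%), against 16.9% of all protein-coding genes. All 4, Hnrnpl, Hnrnpm, Sf3b4 and Prpf4b, had a summit in both replicates. Over all protein-coding genes, 1850 of the 3690 with such an exon had one in both. Such exons held 10.8% of placed summits in replicate 1 and 12.9% in replicate 2 (mean 11.9% ± 1.48, SD, n = 2), against 20.7% and 20.6% of all summits.

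A smaller share of these summits than of all placed summits had a DRACH match nearby, with the larger gap in the first 100 nt. A GGAC within 50 nt was found for 16 of 37 summits of replicate 1 (43.2%, 95% exact interval 27.1 to 60.5) and 17 of 31 of replicate 2 (54.8%, 36 to 72.7), against 57% and 56.7% of all placed summits, which lie inside both intervals. DRACH lay within 50 nt of 70.3% (53.0 to 84.1) and 74.2% (55.4 to 88.1), against 93.8% and 93.9%, which lie outside them. In the first 100 nt of the transcript, 3 of 9 summits in replicate 1 and 5 of 10 in replicate 2 had one, against 68.5% and 69.3%. Beyond the first 100 nt the shares were 82.1% and 85.7%, against 95.2% and 95.3%, with no interval computed. Close to the transcript start the search window is cut short, and the effect of that on these shares was not tested. At the start codon 52.9% and 60.0% of the summits of splicing factor genes had a DRACH, against 80.7% and 80.9% of all summits there. At their stop codons 7 of 8 and 6 of 6 had one. The median number of GGAC per 1000 nt of transcript was 3.40 in splicing factor genes with a summit in both replicates and 3.30 in those with none.

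Fold enrichment was lower and background higher than for other genes. The median fold enrichment of the exonic peaks was 3.01 in replicate 1 and 3.18 in replicate 2, against 4.11 and 4.29 for all protein-coding genes. Below 2-fold were 10 peaks (21.7%) in replicate 1 and 7 (17.9%) in replicate 2, against 5.83% and 5.57%. The peaks rested on more IP reads, with medians of 124 and 120 against 71 and 68, and the median background was equal to 49.1 and 36 control reads against 18 and 14. By position, the median fold enrichment was 4.18 and 4.82 at the start codon, 2.71 and 2.66 at the stop codon, and 1.78 and 1.85 in the rest of the coding sequence. The median background at these positions was 14 and 20, 69.5 and 54, and 102 and 75 control reads.

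**Figure D4:**
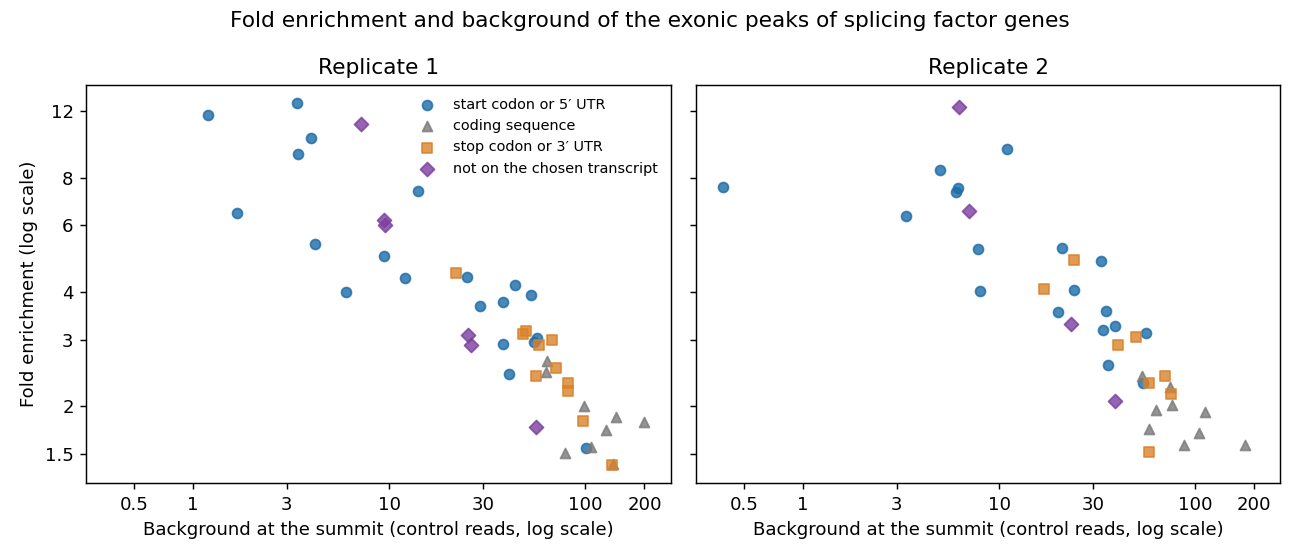
Fold enrichment (vertical axis, log scale) against background in control reads at the summit (horizontal axis, log scale) for the exonic peaks of splicing factor genes, by position on the transcript, with 1 panel per replicate. The median fold enrichment was 4.18 and 4.82 at the start codon and 1.78 and 1.85 in the coding sequence, where the background was higher.

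Overlapping peaks of the replicates had similar fold enrichment. Of the exonic peaks, 69.6% in replicate 1 and 87.2% in replicate 2 had at least 1 bp in common with a peak of the other list, against 85.1% and 87.3% for all genes. In 29 one-to-one pairs the fold enrichments had a Spearman's rho of 0.873, the log2 ratio had an SD of 0.49, 27 pairs lay within 2-fold, and the median distance between summits was 11 nt. The points share the same pair of libraries, and several come from one gene. Over 9162 pairs of all genes these values were 0.824, 0.45, 95.9% and 15 nt.

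**Figure D5:**
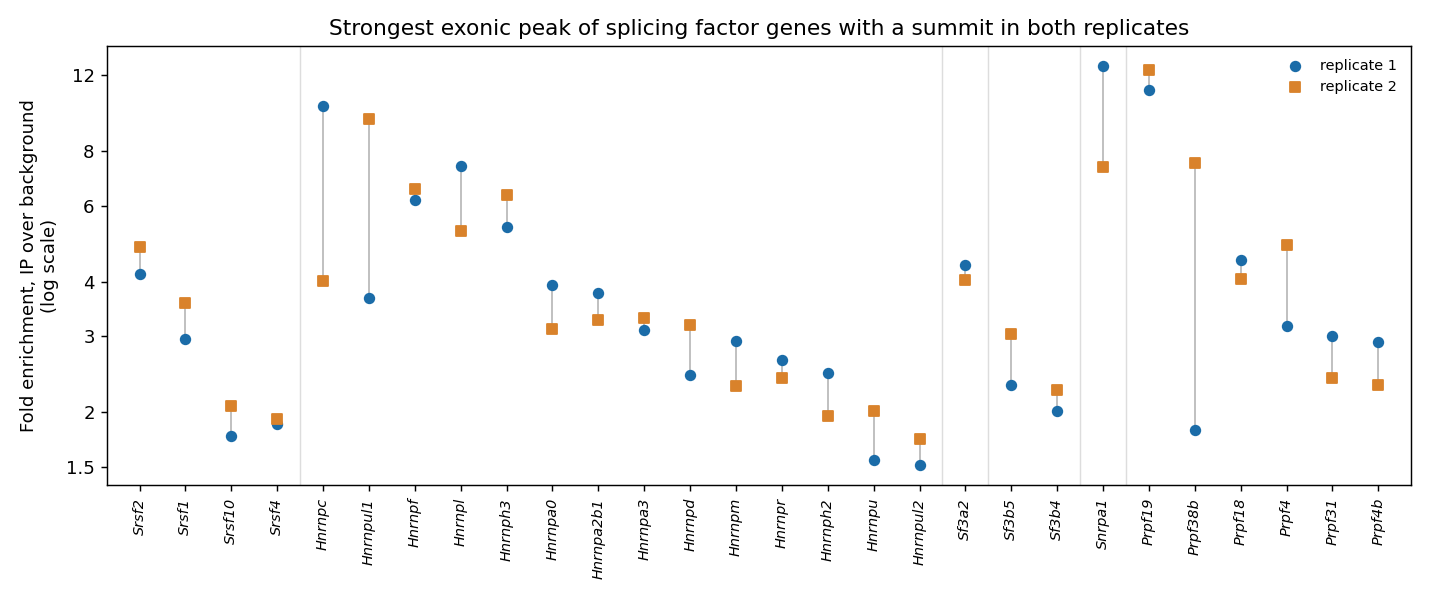
Fold enrichment of IP over background (vertical axis, log scale) of the exonic peak with the highest -log10 q in each of the 28 splicing factor genes with a summit in both replicates, ordered within families. A grey line joins the replicates of a gene. Prpf19 had 11.1 and 12.3, and the values of Prpf38b and of Hnrnpm come from different peaks in the 2 replicates.

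Among the SR protein genes Srsf2 had the strongest recurrent peak. Srsf2 (chromosome 11, 3 exons) had 4.18-fold enrichment in replicate 1, on 164 IP reads over 44 control reads, and 4.82-fold in replicate 2, on 171 over 33. Both summits were in exon 1 before the start codon, at the GGAC shown above. Srsf1, the founding SR protein, had 2.96-fold (144 IP reads) and 3.57-fold (134 IP reads) in exon 1, with summits -15 and -12 nt from the start codon. Srsf10 (1.76-fold and 2.07-fold) had its summits on a transcript other than the chosen one, near that transcript's stop codon, with 87 and 86 IP reads. Srsf4 had a coding peak in its last exon (1.88-fold and 1.93-fold) and, in replicate 2, a further peak at the stop codon (2.15-fold on 171 IP reads). All lie where Gm12992 also has an exon, and lists without strand cannot assign them to one gene.

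In the Hnrnp family the strongest peaks were at the 5′ end. Hnrnpc, whose product binds uridine tracts of nascent RNA, had 10.2-fold enrichment in replicate 1 (45 IP reads over 4 control reads) and 4.02-fold in replicate 2 (37 over 8) in exon 1. Its other 2 peaks, of 3.03-fold and 2.91-fold, were found in replicate 1 and overlapped none of replicate 2. Hnrnpul1 had 3.68-fold (96 over 29) and 9.52-fold (119 over 11) in exon 1, so its replicates differed by more than 2-fold, as those of Hnrnpc did. Hnrnpf had 6.19-fold (56 over 9.40) and 6.55-fold (54 over 7) in a 45-nt first exon of a transcript other than the chosen one. That exon also overlaps an exon of 4933440N22Rik, so the call of Hnrnpf is uncertain.

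Hnrnpl and Hnrnph3 came next by mean fold enrichment. Hnrnpl, which binds CA repeats, had 7.41-fold (97 IP reads over 14) and 5.24-fold (120 over 21) in exon 2 at the start codon. Hnrnph3 had 5.35-fold and 6.34-fold on only 24 and 28 IP reads. Hnrnpa2b1, a reported m6A-associated protein of the nucleus, had 3.77-fold (128 IP reads) and 3.26-fold (136 IP reads) in exon 1, the summits 8 and 13 nt from the transcript start. Hnrnpa0 had a peak at the start codon (3.93-fold and 3.12-fold) and one at the stop codon (3.11-fold and 2.91-fold). Hnrnpa3 (3.09-fold and 3.30-fold) had its peak in the long 3′ UTR of a transcript other than the chosen one, with summits 1 nt apart. Of its chosen spliced sequence 99.6% has a copy elsewhere in the genome. The summits lie outside that sequence, in a stretch not searched for copies. Hnrnpd, Hnrnpr and Hnrnph2 had means between 2.21-fold and 2.81-fold. The replicate 2 summit of Hnrnpd also lies in an exon of Gm17092, so the call in that replicate is uncertain. The peak of Hnrnpm near the start codon in exon 1 had 2.92-fold and 2.57-fold, and by -log10 q its strongest peak in replicate 2 was another, in exon 2, of 2.30-fold, which overlapped none of replicate 1.

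The lowest values in the family belonged to genes with high background. Hnrnpu, which encodes a nuclear scaffold protein, had 1.55-fold on 137 IP reads over 101 control reads and 2.02-fold on 162 over 76. Hnrnpul2 had 1.51-fold and 1.74-fold, and it was the only gene of the 28 that no longer had a summit in both replicates when -log10 q of at least 3 was required, since it lost that of replicate 1 and kept that of replicate 2.

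Among the branch site factors, Sf3a2 had 4.38-fold (99 IP reads over 25) and 4.04-fold (105 over 24) in its 5′ UTR, in exon 1, which overlaps an exon of Plekhj1. Sf3b5, a single-exon gene for a small subunit of the SF3B complex, had 2.31-fold (167 over 82) and 3.04-fold (162 over 50) past its stop codon. Sf3b4 had 2.01-fold (173 over 98) and 2.25-fold (176 over 74) in internal exon 3 of 543 nt. The summits of Sf3b4 are in a stretch that has a near-identical copy elsewhere.

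Snrpa1, which encodes a U2 snRNP protein, had the highest value of any exonic peak of the set in replicate 1. It had 12.6-fold enrichment (49 IP reads over 3.40) in replicate 1 and 7.35-fold (53 over 6) in replicate 2, in exon 1 before the start codon. The summits were 64 bp apart, and the same GGAC lay 51 nt downstream of the first and at -13 nt of the second.

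In the Prpf family Prpf19, the ubiquitin ligase of the complex named after it, had the highest mean fold enrichment. It had 11.1-fold (80 IP reads over 7.20) and 12.3-fold (93 over 6.26) at the 5′ end of a transcript other than the chosen one, 76 and 61 nt from its start. Prpf38b had a peak at the start codon of 4.99-fold and 7.54-fold, on 45 and 56 IP reads. Its coding peak in the last exon had 1.82-fold and 1.58-fold on 317 and 299 IP reads, and no exonic peak of a protein-coding gene had more IP reads in either list. The stop codon peak of Prpf18 had 4.50-fold (90 over 22) and 4.07-fold (76 over 17). Prpf4 had 3.16-fold and 4.87-fold in the 3′ UTR, with summits 240 bp apart inside peaks of 1246 and 1245 bp. Prpf31 (3-fold and 2.40-fold) and Prpf4b (2.90-fold and 2.31-fold) had their strongest peaks at the stop codon.

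In 13 genes the summit was found in 1 replicate, and in all 13 the peak overlapped no peak of the other replicate. Of their 14 exonic peaks, 8 were at the start codon or in the 5′ UTR of the chosen transcript and 3 at the stop codon. Several rested on few reads over a low background. Sf3b1, the subunit that contacts the branch site, had 7.56-fold in replicate 2 on 10 IP reads over 0.391 control reads. Prpf6 had 11.7-fold in replicate 1 on 23 IP reads over 1.2, and Snrpd3 had 9.24-fold in replicate 1 on 36 over 3.44, in an exon shared with Gucd1.

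The others had more reads or a higher background. In replicate 1, Hnrnpk had 6.00-fold on 55 IP reads in an exon it shares with Rmi1, and Prpf8, the scaffold of the U5 snRNP, had 4.37-fold on 49. Srsf11 had 4.01-fold on 24 IP reads at the start codon and 1.40-fold on 168 at the stop codon. Snrpd2 (2.52-fold on 158), Sf3a1 (2.40-fold on 119), U2af2 (2.20-fold on 159) and Sf3b3 (1.83-fold on 156) had their peaks at the 3′ side, near or past the stop codon. In replicate 2, Hnrnpll had 5.20-fold on 47 IP reads in its 5′ UTR and Hnrnpab 3.54-fold on 77 at the start codon.

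Several splicing factor genes have processed copies, which short reads cannot always tell apart. At 98% identity, 10 of 68 had a copy elsewhere in GRCm38 over at least 50% of their spliced length (Srsf5, Srsf10, Hnrnpa1, Hnrnpa3, Hnrnpf, Hnrnpk, Sf3b4, Snrpc, Snrpe and U2af1), and 49 had none. Of these 10, 4 were among the 28 genes with a summit in both replicates, and 5 among the 27 with none. Copies of Hnrnpf on chromosomes 1, 4 and 13 themselves carried a peak in both replicates, of 2.74-fold and 2.29-fold, 2.68-fold and 2.75-fold, and 1.59-fold and 1.53-fold. Without the 10 genes, 24 of 58 had a summit in both replicates, and the start codon held 49.3% of summits. Summits in a copied stretch were also found for Hnrnpc, Hnrnpf, Snrpd2 and U2af2, 1 each. How reads that fit several places were treated is not given in the sources used here.

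The rest of the splicing machinery was counted for context, from a list of 83 other genes. A summit in both replicates was found in 43 (51.8%, against 30.9% of all protein-coding genes), in 1 replicate in 9, and in neither in 31. In the Lsm ring, whose small proteins resemble the Sm proteins of the Snrp genes, 1 of 7 genes had a summit in both replicates. Of the 9 genes for snRNP assembly 7 had one, Gemin4 with 4 summits in each replicate. The SR protein kinases had 4 of 6, Srpk1, Srpk2, Clk2 and Clk3. Snrnp40, a U5 snRNP protein, had the highest fold enrichment of the list, with 16.3 in replicate 1 and 19.0 in replicate 2, and Zrsr1 followed with 13.6 and 17.9. Among SR-related proteins 9 of 20 had a summit in both replicates, Son with 5 and 6.

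RNA levels are not part of the peak lists, and the labelled cell type could be looked at only through peaks on marker transcripts. Of 9 stem and progenitor cell markers 6 had a summit in both replicates (Cd34, Gata2, Runx1, Tal1, Lmo2 and Meis1), and Kit, Myb and Flt3 had none. Of 7 erythroid markers 4 had one, of 5 hepatoblast markers 2 (Apoa1 and Hnf4a, with Alb and Ttr at none), of 4 macrophage markers 1 (Csf1r) and of 3 endothelial markers 1 (Kdr). The part of these other cells in the peaks of the splicing factor genes was not tested.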

How the data were processed

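m6A-seq peaks of 2 IP replicates were analysed. Per the deposited files and the methods, the authors placed reads on GRCm38 (mm10) with HISAT2 and called peaks in each replicate with MACS2 (version 2.1.1.20160309, nomodel). The control library and threshold are not given in the sources used here. The authors' MACS2 values were the fold enrichment at the summit (a ratio of IP to background), its −log10 p-value, its −log10 q-value, the score and, as other columns of the deposited files, the peak's ends and the summit offset. The deposited score was not used.

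Exons were those of the GENCODE M21 basic set, and each gene was represented by the transcript with the longest coding sequence. A summit was placed if 1 protein-coding gene alone held it, in an exon of its chosen transcript. IP reads and the background at a summit were computed from fold enrichment and p-value through the formulas of MACS2. There, fold enrichment is the IP signal plus 1 over the background plus 1. In replicate 1 the background was scaled by 0.87354 per control read, and in replicate 2 the IP signal by 0.95158 per IP read. The background is given in units of 1 control read. It is not a count of reads at the summit and need not be a whole number. A whole number of IP reads matched 100% of peaks to within 0.001 in −log10 p. Regions are within 200 nt of a codon, the stop codon first. Motifs were searched within 50 nt. Shares have exact Clopper-Pearson 95% intervals. Copies were found with BLAST 2.17.0. Python 3.11.15 with pandas 2.3.3 and scipy 1.17.1 was used, and the placement was tested on simulated data.

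Full values are given for up to 3 genes per family with the highest mean fold enrichment, and for each gene with a summit in 1 replicate. Other genes were added after their values were seen. The members and lists were chosen with earlier results of these data known. The authors pooled no replicates, and the labels do not say whether these came from separate animals. No test between groups was made. The single values of 1 gene of the set are not reported here.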

Additional observations from a re-analysis of the deposited data

Results flagged for a closer look

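Peaks with a summit outside the exons used for the counts were looked at separately, since they belong to no comparison above. In splicing factor genes, 8 summits of replicate 1 and 6 of replicate 2 lay in introns or in exons found only in the comprehensive transcript set, and no control sample with a peak list was analysed. All 3 that lay in exons of the comprehensive set only recurred. Hnrnpl had a peak in an exon of a retained-intron transcript, with 4.68-fold enrichment in replicate 1 on 145 IP reads and 4.38-fold in replicate 2 on 137 IP reads. The replicate 1 peak was 1894 bp wide, and replicate 2 had a second peak beside it of 3-fold. Hnrnpll had 6.75-fold (60 IP reads) and 5.69-fold (54 IP reads) in an exon of another retained-intron transcript. Hnrnpdl, which had no summit in the basic exons, had 4.33-fold (95 IP reads) and 4.05-fold (92 IP reads) in the first exon of a transcript annotated for nonsense-mediated decay.

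Of the intronic summits, those of Snrpn fell on the same base in both replicates, with 5.61-fold on 34 IP reads and 6.91-fold on 28. In replicate 1, Hnrnpa3, Sf3b1, Snrpd2 and Prpf4 had a peak that overlapped no peak of replicate 2 and had its summit in an intron. Hnrnpd had such a peak in replicate 2, whose summit also lies in an exon of Gm17092. That of Snrpd2 had 4.69-fold on 147 IP reads, and that of Sf3b1 had 4.84-fold on 80. Only summits were placed here, and a peak with an intronic summit can reach into an exon. With any overlap of a peak and a basic exon counted, 31 genes had a peak in both replicates, with Hnrnpdl, Sf3b1 and Snrpn added. How these peaks arise was not tested.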

How the results depend on the processing

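Of 66 alternative values for the counts and shares, 42 stayed close to the reported one and 24 moved. A minimum of 4-fold enrichment moved most. It left 10 genes with a summit in both replicates and 21 in either, 14.7% of members in both, 8.71% of summits at the stop codon, 8.71% in internal exons of at least 400 nt, 83.0% at the start codon and 64.6% of peaks shared. With -log10 q of at least 3 the stop codon held 18.6% and the start codon 50%, and with at least 5 the start codon held 51.8% and long internal exons 10%. Windows of 100 and 400 nt gave 16.2% and 29.1% at the stop codon and 26.7% and 57.4% at the start codon. Internal exons of at least 1000 nt held 2.96%. GGAC lay within 25 nt of 30.2% and within 100 nt of 73.6% of summits, and DRACH within 50 nt of 72.2%. With summits that several genes' exons hold left out, the value was 35.3% of members in both replicates. Without replicate 1 or replicate 2, the share of members was 47.1% to 54.4%, that is of 32 to 37 genes. The start codon alternatives were chosen after the data were seen, as were a background of at least 36 control reads (25.2%) and leaving out members with copies (49.3%). In the settings named here the start codon share stayed above that of all summits. No paired analysis was possible because the series holds 1 group of IP samples. The depth of the libraries is not known, which limits what the absence of a peak shows.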
